A study of Mus musculus with 6 samples.

Results

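C-type lectins, mannose receptors and Siglecs are surface and secreted proteins that read carbohydrates or related ligands, and 48 of their genes were measured in skeletal muscle of dystrophic mice. The members were taken by symbol: every gene whose name begins with Clec and a number or with Cd209, Siglec1, Siglec15 and the lettered Siglecs e, g and h, and the genes Mrc1, Mrc2 and Mgl2, without Siglecf. They are 48 of the 19752 genes that carried a single symbol on the array, and only Clec4g had more than 1 probe set. Muscle came from mdx mice, whose fibres lack dystrophin and pass through cycles of degeneration and repair. In the treated group, 3 samples were from animals injected with anti-CD25, a monoclonal antibody of clone PC61 against the interleukin-2 receptor alpha chain. The controls were 3 samples from mdx mice given rat IgG. Each mouse received 2 intraperitoneal injections, on days 17 and 20 of age, and the design text puts dissection 7 days later, whereas the labels give an age of 6 weeks in both groups. The muscle is not named, and every value is from whole tissue, in which fewer cells of a type and less RNA per cell cannot be told apart.

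These receptors are best known from myeloid cells. Many hold a C-type lectin fold that binds sugars with the help of calcium, while others of the same fold bind proteins or lipids. Receptors such as Dectin-1, Dectin-2, MCL and Mincle pass an activating signal through the kinase Syk and the adaptor Card9, some of them by way of the Fc receptor gamma chain Fcer1g. Others, such as DCIR, MICL and most Siglecs, carry inhibitory motifs that recruit phosphatases. Mannose receptors carry glycoproteins and collagen fragments into the cell for degradation. In injured muscle, macrophages that clear debris and later support repair bear several of them.

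The labels call all animals male, but Xist, the RNA of the inactive X chromosome, measured 11.77 to 11.94 log2 units on the arrays numbered 1 and 2 of each group and 5.49 on anti-CD25 3 and 5.48 on rat IgG 3. The Y-linked Kdm5d ran the other way, at 5.09 or lower on those 4 arrays and at 7.85 on anti-CD25 3 and 7.80 on rat IgG 3. Differences of a part of the genes are therefore also given by Xist class. They were taken inside the set of 4 high Xist arrays, and between the 2 low Xist arrays, 1 from each group. The treatment's target Il2ra measured 5.66 ± 0.12 with anti-CD25 and 5.67 ± 0.090 with rat IgG (SD, n = 3 each), below the background defined next, with an exact two-sided permutation p of 0.9. Foxp3, the factor of regulatory T cells, measured 6.48 ± 0.11 with anti-CD25 and 6.57 ± 0.13 with rat IgG (SD, n = 3 each; exact permutation p = 0.3), where 0.1 is the smallest p that 3 arrays against 3 allow. Muscle genes identified the tissue, with all 8 markers above background and Acta1, skeletal actin, between 13.76 and 13.84 on the 6 arrays. The labels do not say whether the replicates are separate animals, so p-values describe the scatter of these samples alone, part of which may be technical.

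Expression was judged against genes that muscle should lack. On each array the background was the 95th percentile of 1194 olfactory and vomeronasal receptor genes, which lay between 5.93 and 6.18 log2 units, and a gene was called expressed if it exceeded that value on all 6 arrays. By this rule 29 of the 48 members, 60.4%, were expressed, against 67.4% of all genes and 3.43% of the receptor genes. The 29 were Mrc1 and Mrc2, the galactose-type lectins Clec10a, Mgl2 and Clec4f, 5 genes of the Dectin-2 cluster (Clec4a1, Clec4a2, Clec4a3, Clec4d and Clec4n), Clec5a, Clec7a, Clec12a and Clec1a of the Dectin-1 cluster, Clec2d, Clec2i and Clec2l, Cd209a, Cd209f and Cd209g, Siglec1, Siglece, Siglecg and Siglec15, the secreted or endothelial Clec3b, Clec11a, Clec14a and Clec18a, and Clec16a. A stricter line at the 99th percentile of the receptor genes kept 16 members, and the median of all genes kept 14. The stricter line left out Clec4a2, Clec4n, Clec4d, Clec10a and Clec5a, which lay below its value of 7.08 on rat IgG 1. Probe sets differ in their response, so a level says whether a gene stood above background and not which gene had more RNA.

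**Figure D1:**
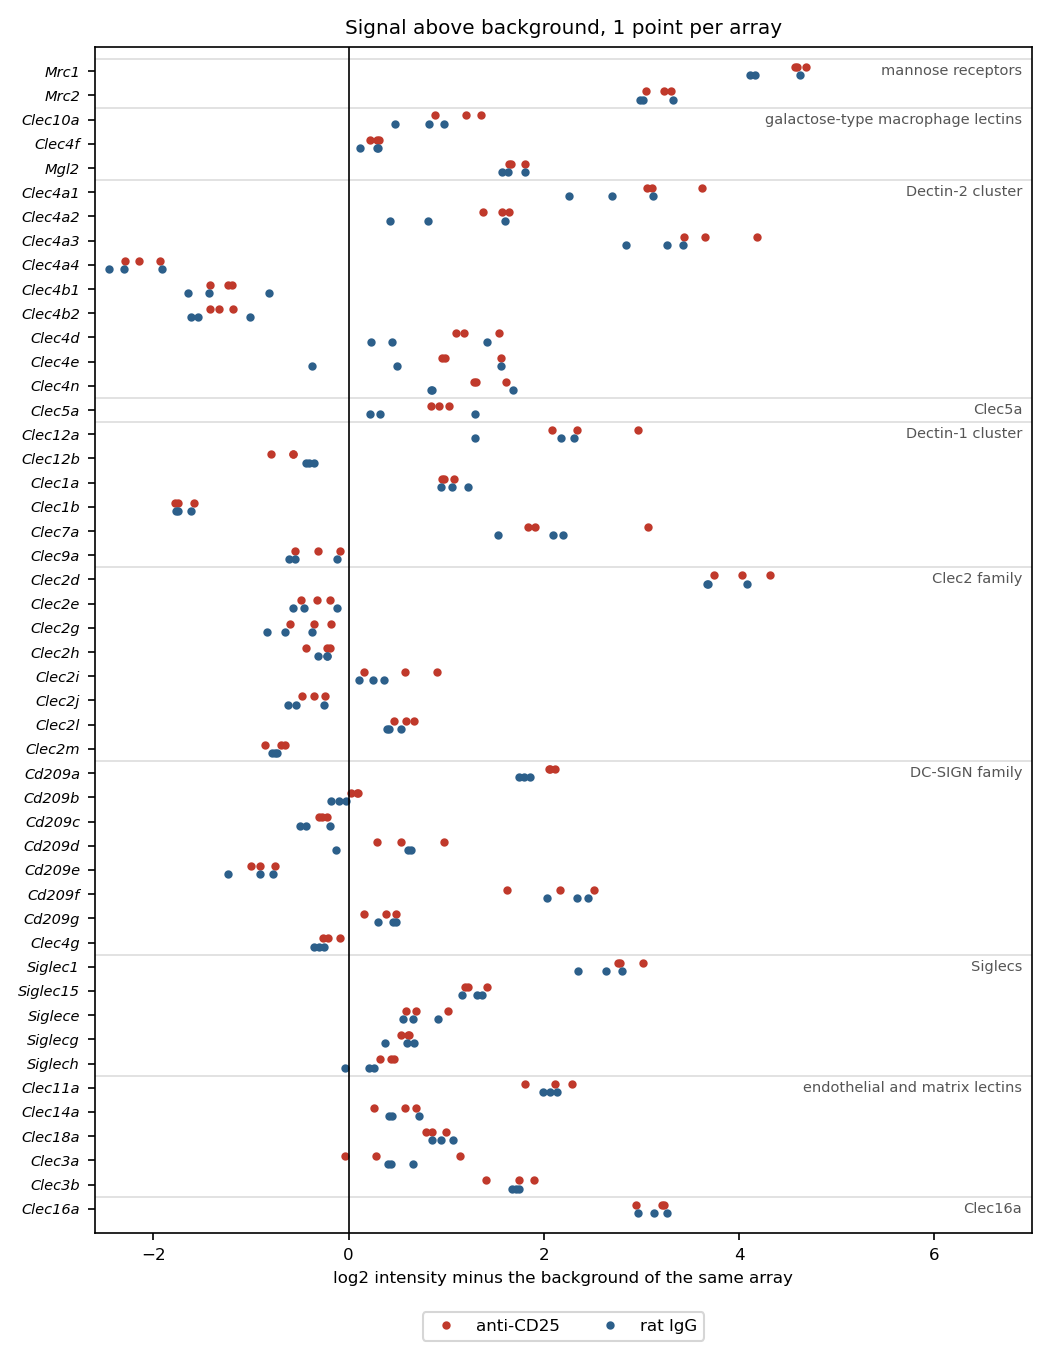
Log2 intensity minus the background of the same array (x axis) for the 48 members in their role groups (y axis), 1 point for each array, anti-CD25 in red above rat IgG in blue. All points of 29 members lie right of 0, while Clec4a4, Clec4b1, Clec4b2, Clec1b and 10 other Clec and Cd209 genes lie left of 0 on every array.

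Of the 19 members that were not expressed, Clec4e, Cd209d, Clec3a and Siglech exceeded background on 5 arrays and Cd209b on 3. The remaining 14 lay below it on all 6 arrays, among them Clec9a, by which a subset of dendritic cells senses dead cells, at 5.55 to 5.84 log2 units, and Clec1b, the podoplanin receptor of platelets, at 4.21 to 4.41. Clec4a4, Clec4b1 and Clec4b2 of the Dectin-2 cluster lay between 3.72 and 5.11. RMA draws dim values together, so differences among these genes are understated.

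Treatment was compared gene by gene, as anti-CD25 minus rat IgG, with limma over all 19752 genes. No member passed at an adjusted p of 0.05, nor did any other gene (0%), and the smallest adjusted p among members was 0.7496. Without rat IgG 3, 7 genes passed, none of them a member. At an unadjusted p under 0.05 there were 4 members higher with anti-CD25 (8.33%, against 2.3% of all genes) and 1 lower (2.08%, against 3.98%). The 4 were Clec4a1, Clec4a2, Clec4a3 and Clec10a, and the 1 was Clec12b, which is below background. This count rested on single arrays: it was 0 in both directions without rat IgG 2, 1 without anti-CD25 1, and 9 higher and 3 lower without rat IgG 3. The matching shares of all genes are not given, so these shifts cannot be ascribed to the members alone. Groups did not overlap in 0 members in the higher direction (4.28% of all genes) and in 1, Clec1a, in the lower direction (7.46% of all genes).

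The members did not move as a block. Differences were above 0 in 25 of 48, or 52.1%, against 41.1% of all genes, and among the expressed in 15 of 29. Their median was 0.011 log2 units, and 0.033 over the expressed members, against -0.026 over all genes. All genes include dim ones, which lower that comparator. Above the 30th percentile of intensity the median was 0.127 over 33 members and -0.0037 over all genes kept. Above the 50th it was 0.143 over 16 members and 0.011 over all genes kept. Medians over all measured genes of a role group, many of them below background, were 0.48 over the 9 measured genes of the Dectin-2 cluster, -0.034 over the 6 of the Dectin-1 cluster, 0.026 over the 8 of the Clec2 family, 0.019 over the 8 of the DC-SIGN family, -0.038 over the 5 Siglecs and -0.12 over the 5 endothelial and matrix lectins. The Dectin-2 cluster median was 0.093 without rat IgG 1 and 0.27 without rat IgG 2. Over expressed genes alone the medians were 0.48 for the 5 of the Dectin-2 cluster (0.30 without rat IgG 2), 0.24 for the 3 of the Dectin-1 cluster (0.070 without rat IgG 2, -0.10 without anti-CD25 1), 0.13 for the 3 of the Clec2 family (0.023 without anti-CD25 1), -0.16 for the 3 of the DC-SIGN family (-0.075 without anti-CD25 3), -0.045 for the 4 Siglecs and -0.12 for the 4 endothelial and matrix lectins (-0.037 without anti-CD25 3). The signs for the Dectin-1 cluster and the DC-SIGN family thus turned with the genes below background left out.

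**Figure D2:**
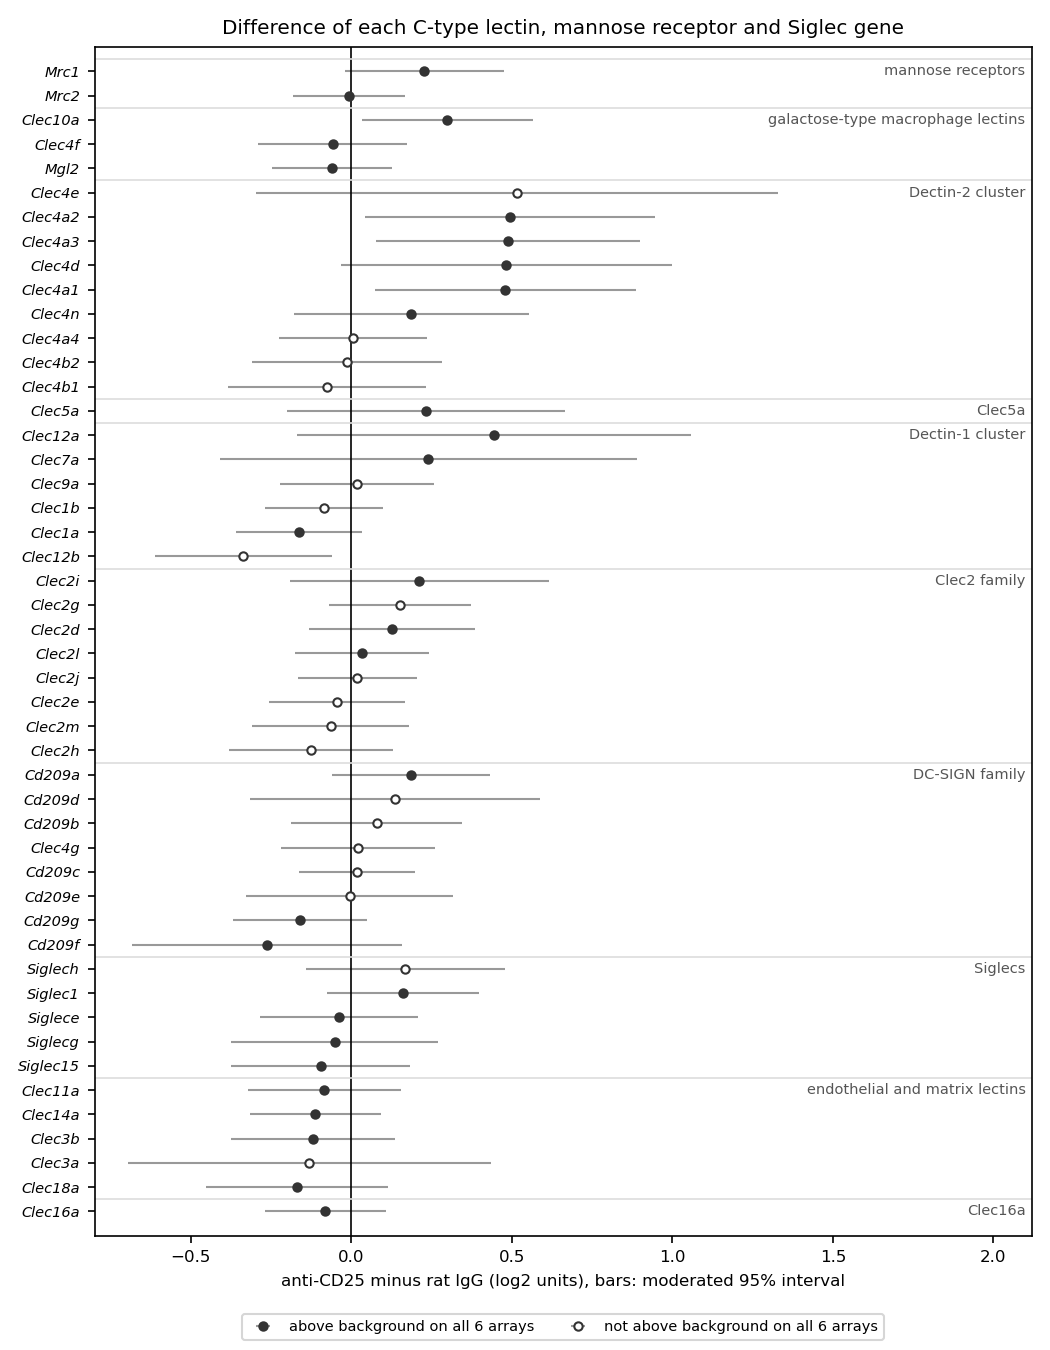
Difference, anti-CD25 minus rat IgG in log2 units (x axis), of each of the 48 members (y axis) by role group, with limma's moderated 95% interval. Filled points are the 29 expressed members and open points the other 19. Intervals of Clec4a1, Clec4a2, Clec4a3 and Clec10a lie above 0 and that of Clec12b below 0, before any adjustment for 19752 genes.

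The Dectin-2 cluster is a run of 9 neighbouring genes on chromosome 6, in the order Clec4a1, Clec4a3, Clec4a4, Clec4b1, Clec4a2, Clec4b2, Clec4n, Clec4d and Clec4e. Its 5 expressed genes and Clec4e averaged higher with anti-CD25, while Clec4a4, Clec4b1 and Clec4b2, below background throughout, differed by -0.076 to 0.0056. Genes above and below background are interspersed along the chromosome. None of the 9 passed the adjusted test.

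Clec4a3 and Clec4a1 encode relatives of DCIR, an inhibitory receptor of dendritic cells and macrophages. Clec4a3 measured 10.11, 9.40 and 9.75 log2 units on anti-CD25 1, 2 and 3, and 9.44, 9.0 and 9.36 on rat IgG 1, 2 and 3. Only anti-CD25 2 fell within the range of the rat IgG arrays. The difference was 0.49 (SE 0.18, 95% interval 0.077 to 0.90, unadjusted p = 0.025), a 1.40-fold ratio, at 0.53 in the high Xist class and 0.40 in the low one. It was 0.31 without anti-CD25 1. Clec4a1 measured 9.55, 9.02 and 9.21 with anti-CD25, against 8.88, 8.42 and 9.05 with rat IgG. Here too anti-CD25 2 overlapped the rat IgG range, by way of rat IgG 3. The difference was 0.48 (SE 0.18, 95% interval 0.072 to 0.89, unadjusted p = 0.026), with 0.64 and 0.16 within the high and low Xist arrays, and it was 0.30 without rat IgG 2.

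Clec4a2, which encodes DCIR itself, was close to constant with anti-CD25, at 7.57, 7.54 and 7.47, against 6.99, 6.59 and 7.53 with rat IgG. The spread lay in the rat IgG group, where array 3 matched the anti-CD25 arrays. Its difference was 0.49 (SE 0.20, 95% interval 0.042 to 0.94, unadjusted p = 0.035), 0.77 within the high Xist arrays and -0.054 between the low Xist arrays. It was 0.27 without rat IgG 2 and 0.74 without rat IgG 3.

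Clec4d encodes MCL and Clec4e encodes Mincle, partners that bind mycobacterial glycolipid, and Mincle also senses a product of dead cells. Clec4d measured 7.03, 7.51 and 7.28 with anti-CD25, against 6.41, 6.61 and 7.35 with rat IgG. Clec4e measured 6.89, 7.53 and 7.09 with anti-CD25, against 5.81, 6.66 and 7.49 with rat IgG, and rat IgG 1 was its only array below background. Both genes had all 3 anti-CD25 arrays above rat IgG 1 and 2, and rat IgG 3 within or near the anti-CD25 range. The differences were 0.48 for Clec4d (SE 0.23, unadjusted p = 0.063) and 0.52 for Clec4e (SE 0.36, unadjusted p = 0.185). Within the high Xist arrays they were 0.76 and 0.97, and between the low Xist arrays -0.073 and -0.40. Without rat IgG 1 the difference of Clec4e was 0.092 and that of Clec4d 0.29, and without rat IgG 3 they were 0.93 and 0.76.

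Clec4n encodes Dectin-2, a receptor for fungal mannan. It measured 7.54, 7.27 and 7.39 with anti-CD25, against 7.03, 7.01 and 7.61 with rat IgG, so that rat IgG 3 was the highest array. Its difference of 0.19 (SE 0.16) was 0.39 within the high Xist arrays, -0.22 between the low Xist arrays, 0.093 without rat IgG 1 and 0.082 without rat IgG 2. Sign changes between the Xist classes in Clec4a2, Clec4d, Clec4e and Clec4n rest on rat IgG 3 and anti-CD25 3 alone. No member passed limma's test of an interaction between treatment and Xist class (smallest adjusted p = 0.0668), which 8 genes, 0.0405%, passed. At an unadjusted p under 0.05 the test held 18 of the 48 members, against 19.4% of all genes.

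**Figure D3:**
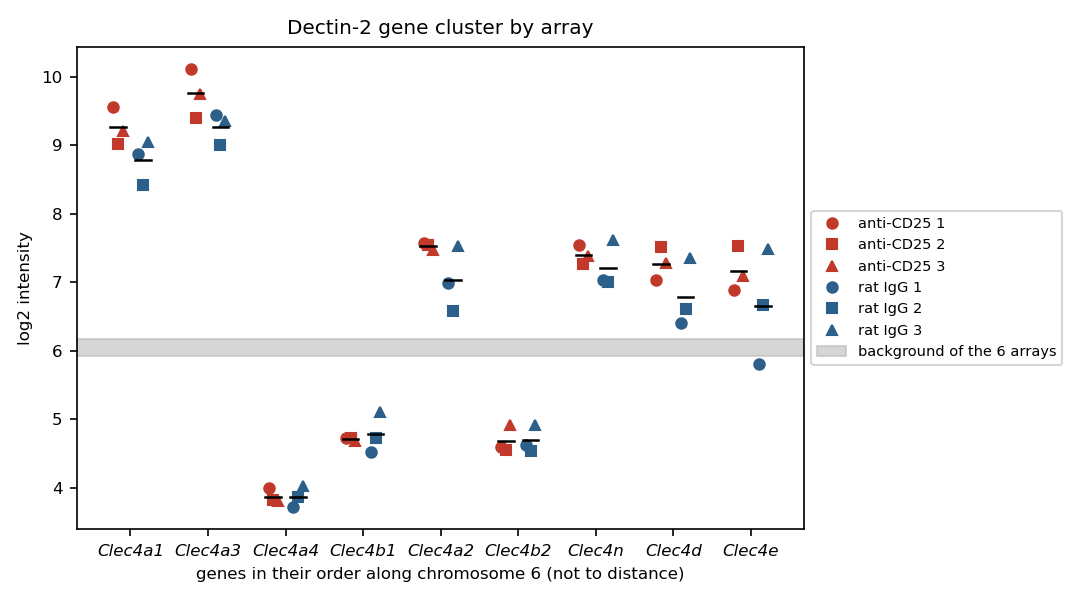
Log2 intensity (y axis) of the 9 genes of the Dectin-2 cluster in their order along the chromosome (x axis), anti-CD25 arrays in red left of rat IgG arrays in blue, with a bar at each group mean and the background of the 6 arrays in grey. Clec4a4, Clec4b1 and Clec4b2 lie below background in both groups, and in Clec4a2, Clec4n, Clec4d and Clec4e the array rat IgG 3 lies at or above the anti-CD25 mean.

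Promoter sequences are shown for 4 genes of this cluster because genes above and below background lie side by side there. The 250 bases before the annotated start were taken from RefSeq on build GRCm38.p6, which held a promoter for 38 of the 48 members. They were searched on both strands for GAGGAA, the PU box bound by the macrophage factor PU.1, which contains the GGAA core shared by all ETS factors. Capitals mark GAGGAA or its complement TTCCTC. Clec4a1 (chr6:122921598-122921847, plus strand), Clec4d (chr6:123261857-123262106, plus strand) and Clec4e (chr6:123289872-123290121, minus strand) had higher means with anti-CD25, and Clec4b1 (chr6:123049712-123049961, plus strand) was below background.
Clec4a1: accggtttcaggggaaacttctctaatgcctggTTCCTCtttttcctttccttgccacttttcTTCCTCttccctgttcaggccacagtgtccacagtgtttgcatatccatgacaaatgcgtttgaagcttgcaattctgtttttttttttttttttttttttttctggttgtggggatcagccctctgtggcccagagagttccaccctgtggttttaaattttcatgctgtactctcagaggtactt
Clec4d: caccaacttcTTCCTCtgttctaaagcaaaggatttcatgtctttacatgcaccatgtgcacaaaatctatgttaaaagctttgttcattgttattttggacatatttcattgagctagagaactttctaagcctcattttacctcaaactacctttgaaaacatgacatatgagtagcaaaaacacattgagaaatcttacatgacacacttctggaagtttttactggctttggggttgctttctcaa
Clec4e: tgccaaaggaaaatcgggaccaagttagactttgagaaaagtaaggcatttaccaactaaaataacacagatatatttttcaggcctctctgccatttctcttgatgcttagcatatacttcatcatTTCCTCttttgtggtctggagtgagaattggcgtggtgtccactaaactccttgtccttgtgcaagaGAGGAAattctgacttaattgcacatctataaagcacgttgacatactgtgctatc
Clec4b1: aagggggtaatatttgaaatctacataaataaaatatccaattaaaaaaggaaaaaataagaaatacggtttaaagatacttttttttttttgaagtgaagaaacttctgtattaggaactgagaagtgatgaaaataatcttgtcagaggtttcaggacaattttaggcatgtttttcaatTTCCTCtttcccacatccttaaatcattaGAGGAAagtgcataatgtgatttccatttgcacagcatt

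The box occurred 2 times each in the windows of Clec4a1, Clec4e and Clec4b1 and 1 time in that of Clec4d. Within the cluster 6 of 7 genes with a window held it, including Clec4b1 and Clec4b2, which were below background, and Clec4a2 did not. Over all members it was in 19 of 38 windows, 50%, against 25.9% of 27025 genes. It was in 15 of 22 expressed members and in 4 of 16 that were not expressed. TTGCNNAA, a C/EBP motif, was in 6 of the 38 windows (10.8% of all genes) and TGANTCA, an AP-1 motif, in 7 (7.82%). These counts describe letters in the windows and carry no test.

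Clec5a encodes MDL-1, an activating receptor of monocytes and neutrophils that signals through Tyrobp. It measured 6.96, 6.89 and 6.95 with anti-CD25, against 6.40, 6.48 and 7.22 with rat IgG. As in Clec4n, rat IgG 1 and 2 lay below all anti-CD25 arrays and rat IgG 3 above them. The difference of 0.23 (SE 0.19) was 0.49 without rat IgG 3 and 0.081 without rat IgG 1, and -0.27 between the low Xist arrays.

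In the Dectin-1 cluster, Clec12a encodes MICL, an inhibitory receptor for uric acid crystals, and Clec7a encodes Dectin-1, the receptor for beta-glucan. Clec12a measured 8.90, 8.05 and 8.44 with anti-CD25, against 8.48, 7.46 and 8.11 with rat IgG. Clec7a measured 8.99, 7.88 and 7.94 with anti-CD25, against 8.38, 7.69 and 8.02 with rat IgG. Both were highest on anti-CD25 1 and lowest on rat IgG 2, and in both the other arrays of the groups overlapped. The differences were 0.44 (SE 0.27) and 0.24 (SE 0.29). Clec12a differed by 0.16 without rat IgG 2, and the sign for Clec7a turned to -0.12 without anti-CD25 1. In the high and low Xist classes Clec7a differed by 0.40 and -0.084.

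Clec1a, a receptor found on endothelium, was the member whose groups did not overlap, at 6.89, 7.05 and 7.08 with anti-CD25, against 7.24, 7.11 and 7.15 with rat IgG. The gap was small beside the spread, with a difference of -0.16 (SE 0.087, 95% interval -0.36 to 0.034, unadjusted p = 0.094). It kept its sign in both Xist classes, at -0.21 and -0.076, and was -0.10 without anti-CD25 1. Clec12b, an inhibitory receptor, had an unadjusted p of 0.022 but measured 5.17 to 5.53 with anti-CD25 and 5.49 to 5.83 with rat IgG, below background on every array. Among the dimmest 30% of genes the median difference was -0.080, and it was -0.0076 once the arrays were quantile normalized again. Clec12b differed by -0.34 in the reported fit and still had an unadjusted limma p under 0.05 after that second normalization. As it lay below background, no fold is given for it.

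Mrc1 encodes the macrophage mannose receptor CD206. It measured 10.50, 10.56 and 10.78 with anti-CD25, against 10.34, 10.27 and 10.56 with rat IgG. Rat IgG 3 reached the level of the anti-CD25 arrays 1 and 2. The difference was 0.23 (SE 0.11, 95% interval -0.021 to 0.47, unadjusted p = 0.068), 1.17-fold, and it was 0.23 in both Xist classes and 0.14 without anti-CD25 3. Mrc2, the collagen receptor Endo180 of fibroblasts, measured 9.23, 9.2 and 9.14 with anti-CD25, against 9.19, 9.15 and 9.25 with rat IgG. Its difference was -0.0085, with an interval of -0.18 to 0.17, and its sign changed with the array left out.

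The galactose-type lectins of macrophages and dendritic cells, which bind galactose and N-acetylgalactosamine, parted. Clec10a, or MGL1, measured 7.28, 7.17 and 6.99 with anti-CD25, against 7.00, 6.64 and 6.91 with rat IgG. Anti-CD25 3 and rat IgG 1 were level, and the other anti-CD25 arrays lay above all rat IgG arrays. The difference was 0.30 (SE 0.12, 95% interval 0.032 to 0.57, unadjusted p = 0.032), with 0.41 within the high Xist arrays, 0.082 between the low Xist arrays and 0.20 without rat IgG 2. Its neighbour Mgl2, marking a subset of dendritic cells and macrophages, measured 7.59, 7.77 and 7.74 with anti-CD25, against 7.75, 7.79 and 7.74 with rat IgG, a difference of -0.060 (SE 0.082). Clec4f, known as a receptor of liver macrophages, lay just above background, at 6.14 to 6.40 with anti-CD25 and 6.23 to 6.48 with rat IgG. It differed by -0.058, with -0.17 within the high Xist arrays and 0.17 between the low Xist arrays.

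Among the Clec2 genes, ligands of the Nkrp1 receptors of NK cells, Clec2d is the ligand of the inhibitory receptor encoded by Klrb1b. It measured 10.25, 10.00 and 9.84 with anti-CD25, against 9.85, 9.85 and 10.02 with rat IgG, and differed by 0.13 (SE 0.11). That value was 0.018 without anti-CD25 1, and -0.17 between the low Xist arrays. Klrb1b itself, which is no member, measured 6.86, 6.77 and 6.97 with anti-CD25, against 6.66, 6.18 and 6.74 with rat IgG. It differed by 0.34 (SE 0.14, unadjusted p = 0.043), and by 0.17 without rat IgG 2. Clec2i, a ligand of an activating Nkrp1 receptor, measured 6.83, 6.12 and 6.68 with anti-CD25, against 6.54, 6.27 and 6.18 with rat IgG, a difference of 0.21 (SE 0.18) that was 0.068 without anti-CD25 1. Clec2l, a member known from brain, differed by 0.033 (SE 0.092). Clec2e, Clec2g, Clec2h, Clec2j and Clec2m lay below background and differed by -0.13 to 0.15.

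The mouse relatives of human DC-SIGN lie together on chromosome 8, and Cd209a, Cd209f and Cd209g were expressed. Cd209a, found on monocyte-derived dendritic cells, measured 7.98, 8.08 and 8.17 with anti-CD25, against 7.97, 8.02 and 7.68 with rat IgG. The lowest array was rat IgG 3, and the difference of 0.19 (SE 0.11) was 0.079 without it. In the high and low Xist classes it was 0.033 and 0.49. Cd209f, encoding SIGNR8, measured 8.10, 8.48 and 7.72 with anti-CD25, against 8.21, 8.61 and 8.27 with rat IgG. It differed by -0.26 (SE 0.19, 95% interval -0.68 to 0.16) and by -0.075 without anti-CD25 3. Cd209g, encoding SIGNR7, measured 6.31, 6.46 and 6.26 with anti-CD25, against 6.48, 6.62 and 6.41 with rat IgG. Its difference was -0.16 (SE 0.092), with -0.16 and -0.15 in the high and low Xist classes and -0.10 without rat IgG 2. Cd209d measured 6.47, 6.94 and 6.39 with anti-CD25, against 6.05, 6.77 and 6.57 with rat IgG, and was below background on rat IgG 1. Cd209b, Cd209c, Cd209e and Clec4g were also not expressed by the rule.

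Siglecs bind sialic acid, the sugar that caps many of the body's own glycans. Siglec1, sialoadhesin of macrophages, measured 8.94, 8.72 and 8.88 with anti-CD25, against 8.81, 8.52 and 8.73 with rat IgG. The groups overlapped through anti-CD25 2, and the difference was 0.16 (SE 0.10), with 0.17 and 0.14 in the high and low Xist classes and 0.074 without rat IgG 2. Siglece, an inhibitory Siglec of myeloid cells, differed by -0.038 (95% interval -0.28 to 0.21). Siglecg, an inhibitory Siglec of B cells, measured 6.53, 6.5 and 6.72 with anti-CD25, against 6.77, 6.83 and 6.30 with rat IgG. It differed by -0.052, with -0.29 within the high Xist arrays and 0.42 between the low Xist arrays. Siglec15, known from osteoclasts, differed by -0.096 (SE 0.12), with -0.24 and 0.20 in the high and low Xist classes, -0.23 without rat IgG 3 and -0.016 without rat IgG 2. Siglech, of plasmacytoid dendritic cells, differed by 0.17, which was -0.0015 without rat IgG 3. Outside the members, Cd33, a further Siglec, measured 9.28, 8.92 and 9.23 with anti-CD25, against 8.97, 8.44 and 8.90 with rat IgG. Its difference was 0.37 (SE 0.15, unadjusted p = 0.039) and 0.21 without rat IgG 2. Siglecf, of eosinophils, differed by -0.11 (SE 0.11).

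Lectins of vessels and matrix, 4 of 5 expressed, all averaged lower with anti-CD25, by small amounts, as did 11631 of all 19752 genes. Clec3b encodes tetranectin, which binds plasminogen, and measured 7.67, 7.86 and 7.51 with anti-CD25, against 7.85, 7.91 and 7.65 with rat IgG. Clec11a encodes a secreted growth factor of bone and blood cells, and measured 8.04, 8.25 and 7.91 with anti-CD25, against 8.17, 8.23 and 8.06 with rat IgG. Clec14a, an endothelial receptor of vessel growth, measured 6.62, 6.54 and 6.36 with anti-CD25, against 6.60, 6.60 and 6.65 with rat IgG. All 3 were lowest on anti-CD25 3. The differences were -0.12 (SE 0.11) for Clec3b, -0.084 (SE 0.10) for Clec11a, -0.11 (SE 0.089) for Clec14a and -0.17 (SE 0.12) for the secreted Clec18a. Without anti-CD25 3 they were -0.033, -0.0045, -0.040 and -0.21. Clec18a differed by -0.34 within the high Xist arrays and by 0.17 between the low Xist arrays. Clec3a, a cartilage lectin that was below background on anti-CD25 1, measured 5.89, 7.11 and 6.38 with anti-CD25, against 6.58, 6.60 and 6.60 with rat IgG, and its difference of -0.13 (SE 0.25) turned to 0.15 without that array. Clec16a, which acts in autophagy inside the cell and is a lectin in name, measured 9.14, 9.19 and 9.04 with anti-CD25, against 9.14, 9.29 and 9.2 with rat IgG, a difference of -0.081 (SE 0.084).

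Array by array, the 29 expressed members had no common order: anti-CD25 1 was highest in 9 and lowest in 4, and rat IgG 2 was highest in 7 and lowest in 9. Among the 14 with a difference below 0, rat IgG 2 was highest in 7 and lowest in 0. That choice itself favours a high rat IgG array and a low anti-CD25 array. Among the 15 with a difference above 0, a choice that itself favours a high anti-CD25 array and a low rat IgG array, anti-CD25 1 was highest in 9 and rat IgG 2 lowest in 9. Of 16 macrophage markers, 11 were highest on anti-CD25 1 and 13 lowest on rat IgG 2. This list and those below were chosen with earlier results of these data known, so counts within them carry no test. Relative to each gene's mean over the 6 arrays, these markers averaged 0.33, -0.057 and 0.22 on anti-CD25 1, 2 and 3, and -0.13, -0.38 and 0.027 on rat IgG 1, 2 and 3. The 5 expressed genes of the Dectin-2 cluster averaged 0.33, 0.12 and 0.19 on the anti-CD25 arrays, and -0.28, -0.51 and 0.15 on the rat IgG arrays. All 16 markers were above background, 15 were higher with anti-CD25 (41.1% of all genes), 7 of them with an unadjusted p under 0.05 (2.3% of all genes), and their median difference was 0.30. Their summed intensity ran from 20825 to 28086 with anti-CD25 and from 17196 to 21665 with rat IgG. The 7 were Adgre1, the macrophage marker F4/80, at 0.38 (SE 0.16), the engulfment receptor Mertk at 0.71 (SE 0.16), the haemoglobin scavenger receptor Cd163 at 0.51 (SE 0.12), the Fc receptor Fcgr3 at 0.49 (SE 0.18), Cd53 at 0.47 (SE 0.16), Cd68 at 0.45 (SE 0.17) and Laptm5 at 0.32 (SE 0.14). Mertk and Cd163 did not overlap between groups (4.28% of all genes in the higher direction). Without rat IgG 2, Fcgr3 differed by 0.33 and Laptm5 by 0.20. The part of these markers in the differences of the lectins was not tested.

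**Figure D4:**
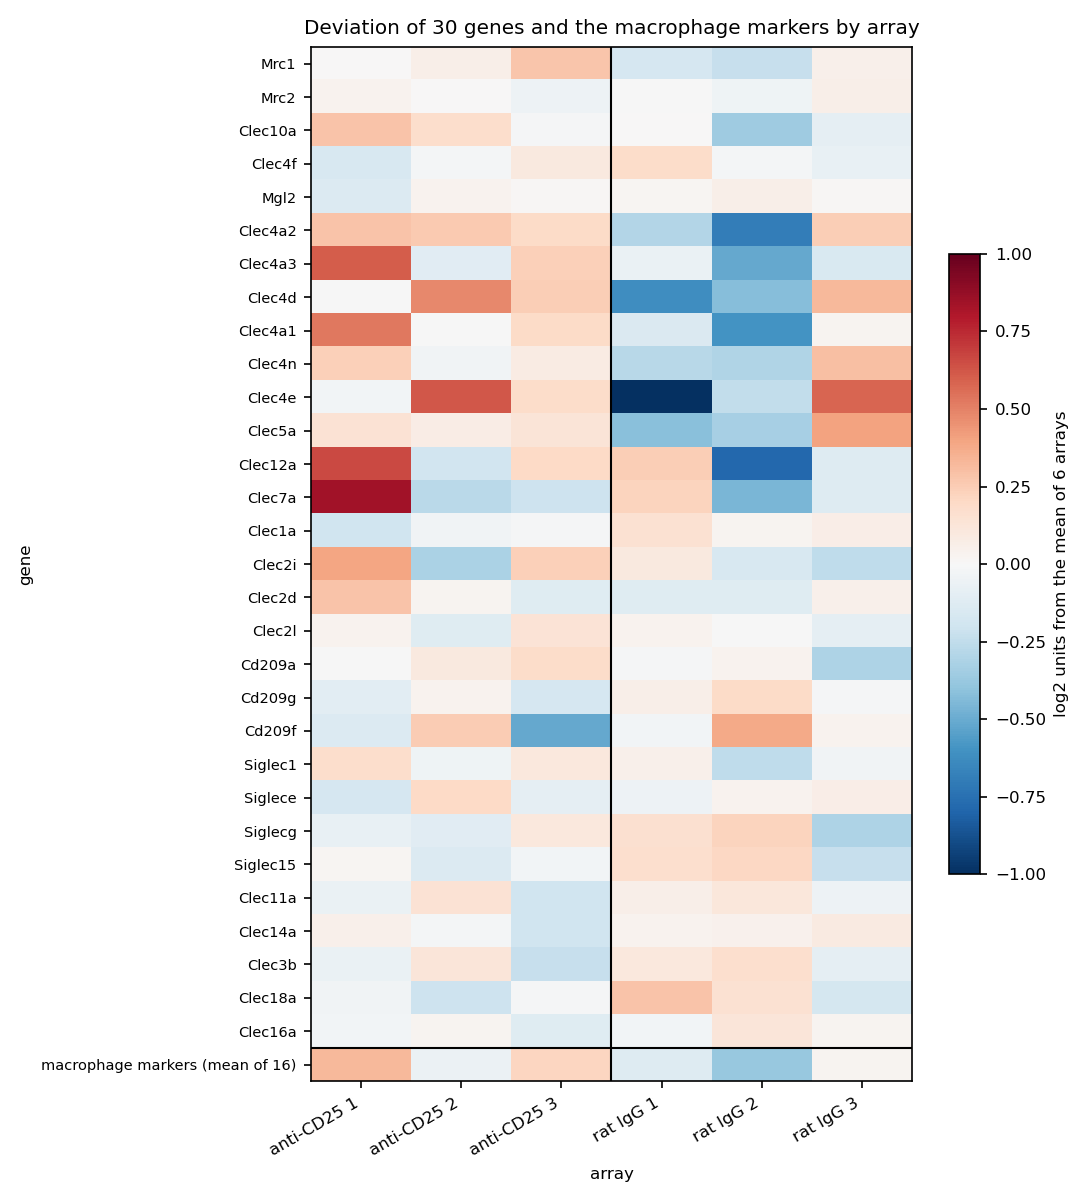
Deviation in log2 units from the mean over 6 arrays (colour) for the 29 expressed members and Clec4e (rows), and the mean of 16 macrophage markers (bottom row), with anti-CD25 arrays left of rat IgG arrays. Clec4a1, Clec4a3, Clec12a and Clec7a are highest on anti-CD25 1 and, like the macrophage markers, lowest on rat IgG 2. Clec4d, Clec4e, Clec4n and Clec5a are high on rat IgG 3 and low on rat IgG 1 and 2.

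Markers of other cell types were compared in the same way, and no list but that of macrophages had most members higher. Dendritic cell markers were lower in 6 of 9 and higher in 3 (41.1% of all genes were higher), with a median of -0.10. Xcr1 and Ccr7 differed by -0.20 and -0.21 at an unadjusted p under 0.05 (3.98% of all genes in the lower direction). The 3 higher ones, Itgax, Cd86 and Batf3, differed by 0.33, 0.089 and 0.028. Summed intensity of the 9 was 1131 to 1289 with anti-CD25 and 1182 to 1268 with rat IgG. Only 1 of 9 neutrophil markers was above background on all arrays, with S100a8, S100a9, Ly6g, Retnlg and Cxcr2 among those that were not, and their sum was 645 to 766 with anti-CD25 and 608 to 807 with rat IgG. That sum was highest on rat IgG 3. NK cell markers were above background in 2 of 8, and B cell markers in 2 of 6. Camp of neutrophils, Cd79a of B cells and Ctla4 of regulatory T cells differed by -0.21, -0.42 and -0.21 at an unadjusted p under 0.05. Each was the only such gene of its list (3.98% of all genes in the lower direction). None of these 3 was above background on all arrays. Pf4, a platelet chemokine, differed by 0.42 (SE 0.13), while 3 of 5 platelet markers were lower. The 9 endothelial markers summed to 6813 to 7202 with anti-CD25 and 6757 to 7395 with rat IgG.

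Signalling partners of these receptors mostly averaged higher. In the list of adaptors and Syk-Card9 signalling, 10 of 13 measured genes were higher with anti-CD25 (41.1% of all genes), 3 of them (2.3% of all genes) and 0 of the lower genes at an unadjusted p under 0.05. The median difference was 0.18, and it was 0.083 without rat IgG 2. Over all genes the median was -0.026, and -0.0037 over those above the 30th percentile of intensity. Syk measured 8.63, 8.30 and 8.55 with anti-CD25, against 8.16, 8.17 and 8.35 with rat IgG, a difference of 0.27 (SE 0.11, unadjusted p = 0.033). Prkcd, a kinase that links Syk to Card9, differed by 0.33 (SE 0.12) and Vav3 by 0.26 (SE 0.11). Both were without overlap (4.28% of all genes in the higher direction), and Vav3 differed by 0.15 without rat IgG 2. Rasgrf1, below background, differed by -0.17 and was the 1 lower gene without overlap (7.46% of all genes). Fcer1g differed by 0.28 (SE 0.12), Tyrobp by 0.38 (SE 0.18) and Card9 by 0.14 (SE 0.098), and without rat IgG 2 Tyrobp differed by 0.24 and Card9 by 0.075. Of the 4 inhibitory phosphatases 2 were higher and 2 lower. Inpp5d, or SHIP1, differed by 0.43 (SE 0.15, unadjusted p = 0.018) and by 0.28 without rat IgG 2, Ptpn6, or SHP-1, by 0.062, Ptpn11 by -0.0088 and Inppl1, or SHIP2, by -0.18.

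Glycan genes and the wider lectin family had medians near 0. Of 28 measured C-type lectin-like genes outside the members, 13 were higher and 15 lower, with a median of -0.0078. Klrb1b alone had an unadjusted p under 0.05 (2.3% of all genes in the higher direction). Of 15 genes of sialic acid synthesis and transfer, 8 were higher, with a median of 0.0052. St3gal4, a sialyltransferase, differed by 0.30 (SE 0.12, unadjusted p = 0.028) and by 0.17 without rat IgG 2. None of these genes passed adjusted over all 19752 genes.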

How the data were processed

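RNA of 6 muscle samples was hybridised to 1 Affymetrix array each. The authors made the deposited intensity values with RMA, run in Affymetrix Power Tools, per the submitters' processing notes, with no version given in the sources used here. Values are on a linear scale, so log2 was taken, with no pseudocount, as the design had provided for. Median intensities were 149.8 to 151.5 and lower quartiles 51.2 to 57.7. Of 24922 probe sets, 21425 had 1 gene symbol, and the probe set with the highest mean stood for each of 19752 genes. Samples were grouped by title. Each gene was tested with limma 3.58.1 in R 4.3.3 (two-sided, group only), with Benjamini-Hochberg adjustment over all 19752 genes and a threshold of 0.05. The fit was tested on simulated data. Named are all expressed members, the 3 brightest others, others with an unadjusted p under 0.05, and of each list the genes with an unadjusted p under 0.05 and at most 3 more. Some genes are named beyond this rule, among them further members not expressed, Rasgrf1 and neutrophil markers. Gene order and promoters came from RefSeq tables of GRCm38.p6. Alternatives covered normalization, fit, filters, probe set choice, replicate block, Xist class and each array left out. Members, role groups and marker lists were chosen with earlier results of these data known. The number of arrays limits the precision, and no depth applies. Whether the replicate numbers in the titles pair the samples is not known. Deviations from the group means correlated at 0.030, -0.0067 and -0.17 for numbers 1, 2 and 3. The Xist class was the same in both groups at each number.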

Additional observations from a re-analysis of the deposited data

How the results depend on the processing

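No member passed an adjusted p of 0.05 under any of 16 alternatives, whose smallest adjusted p among members ran from 0.0958 to 0.9996. Of 451 alternative differences of expressed members, 437 kept their sign. Several alternatives cannot move a difference by their design. They are the variance trend with robust fitting, the filters, the replicate block, the Xist covariate and, here, the probe set choice. Their values are among the 437, which therefore overstates how stable the signs are. Members with an unadjusted p under 0.05, 5 in the reported fit, numbered 9 with array weights, 2 above the 50th percentile of intensity, 8 with the replicate number as a replicate block, 16 within the 4 arrays with high Xist, and 0 to 12 with an array left out. For these alternatives the shares of all genes at that p are not given, so the shifts cannot be ascribed to the members alone. The median difference of the members, 0.011, was 0.0726 with arrays quantile normalized again, 0.127 with genes over the 30th percentile alone, 0.143 over the 50th, and -0.00534 to 0.0268 with an array left out. Over all genes tested, the median was -0.0118 with arrays quantile normalized again, -0.0037 over the 30th percentile and 0.011 over the 50th. Without dim genes fewer members are tested, and the cause of the other shifts was not tested. Expressed members numbered 16 at the 99th percentile of receptor genes, 14 at the median of all genes, and 29 to 31 with an array left out. Signs turned in 6 genes. Mrc2 was 0.0093 with array weights and 0.0409 within the high Xist arrays, where Siglece was 0.0225 and Clec2l -0.0598. With an array left out the ranges were -0.0316 to 0.0182 for Mrc2, -0.122 to 0.434 for Clec7a, -0.15 to 0.0359 for Siglece, -0.12 to 0.0176 for Clec4f, -0.025 to 0.102 for Clec2l and -0.219 to 0.0466 for Siglecg. Signal over background limits Clec4f, Cd209g, Clec2i and Clec14a, which lie close to it. On rat IgG 1 it also limits Clec4d (6.41) and Clec5a (6.40), where the background was 6.18.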
